A study of Setaria viridis with 22 samples.

Results

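Genes with a transcript peak at 12 d after sowing (DAS) in wild-type S. viridis inflorescences were collected by rule, and they numbered 12 of the 35214 primary transcripts measured. A10.1 is the wild-type accession of this small panicoid grass, and *spp1* (sparse panicle1) is a mutant of a gene for an auxin importer, carried in the A10.1 background. Inflorescence primordia were dissected from seedlings of both genotypes at 10, 12, and 14 DAS, with no further treatment, and 10 to 30 of them were pooled per biological replicate. The 22 libraries comprised, for either genotype, 4 of 10 DAS, 3 of 12 DAS, and 4 of 14 DAS. The mutant was represented by a single locus, and its transcript was still measured in every *spp1* library, at 16.5 to 29.9 FPKM against 21.2 to 38.1 FPKM in A10.1. FPKM, the unit of all levels given here, is a fragment number scaled to the length of the transcript and to the mapped fragments of the library.

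A gene had to have a mean of at least 5 FPKM at 12 DAS in A10.1, and its log2(mean FPKM + 1) had to rise by more than 0.5 from 10 to 12 DAS and fall by more than 0.5 from 12 to 14 DAS. Every A10.1 library of 12 DAS also had to lie above every A10.1 library of the other stages. The level at 12 DAS was reached by 12782 genes, and 579 of them had the rise. Of these 579, 412 stayed within 0.5 of their 12 DAS level at 14 DAS, 138 rose by more than a further 0.5, and 29 fell by more than 0.5. The libraries of 14 genes did not overlap, and 2 of those were left out by name in the rule, which left the 12. The mirrored rule, with the lowest level at 12 DAS, was met by 24 genes. It asked for a mean of at least 5 FPKM at both 10 and 14 DAS, and no gene was left out by name. The 2 counts are therefore not like for like. Because the genes were chosen by their FPKM values in the A10.1 libraries of the 3 stages, everything said about A10.1 here is a description, and the tests given here are between stages of the 11 *spp1* libraries, which the rule did not use.

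In grasses, the inflorescence meristem first makes branch meristems, the branches then branch again, and the resulting axes become spikelets, which bear flowers, or in *Setaria* also sterile bristles. The timing of these steps is set by transcription factors of several families and by hormones, among which auxin marks the positions of new axes and cytokinin keeps meristems active. In whole inflorescences, a lower value can come from fewer cells of a type or from less RNA per cell, and these cannot be told apart here.

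Descriptions were found for 7 of the 12 genes. Sevir.2G265300 is a squamosa promoter-binding-like 17-like (SPL17-like) gene. It encodes a transcription factor with the plant SBP-box DNA-binding domain, and the authors pair it with Arabidopsis *SPL9* and rice *OsSPL17*. In rice, SBP-box genes of this kind act on panicle branching. Sevir.2G384900 is LOB domain-containing protein 37-like (LBD37-like). In Arabidopsis, *LBD37* encodes a repressor of anthocyanin synthesis and of nitrogen-responsive genes. Sevir.2G308300 is a LOGL9-like gene for a cytokinin riboside phosphoribohydrolase. Enzymes of this LOG family release active cytokinin from its nucleotide form, and the founding rice gene is required to keep the shoot meristem active. Sevir.8G210100 belongs to the dirigent family, whose proteins steer the coupling of phenolic radicals in lignan synthesis. Sevir.2G418800 is a plant haem peroxidase, an enzyme class that is secreted and oxidizes phenolics in the cell wall. Sevir.2G340800 carries the DUF584 domain and is described as a senescence regulator, and Sevir.6G197100 is described only as rtoA-like. No description was found for Sevir.4G206500, Sevir.7G056600, Sevir.9G018600, Sevir.5G426500, and Sevir.7G249800. Descriptions came only from the authors' tables of differential expression between the genotypes. A description was found there for 2952 genes. The paper reports far fewer genes as different at each stage, so a description alone is not a call of a difference. Described genes are still taken as a biased sample in this respect. None of the 12 was in the study's list of auxin genes or in a list of 9 branching genes. That list leaves out others that the paper names, such as homologs of *RA1*, *TAW1*, and *TFL1*.

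The libraries held 10.4 M to 24.3 M mapped first reads. Replicate 4 of *spp1* at 14 DAS stood apart, with the fewest mapped reads and a value of -58.23 on the second principal component of log2(FPKM + 1), where the other 21 libraries lay between -22.43 and 26.39. Changes from 12 to 14 DAS of the 11 genes tested in *spp1* are given with and without it. The labelled tissue was checked with 7 inflorescence and meristem genes, whose summed FPKM was 153 to 222, 310 to 445, and 621 to 791 in A10.1 at 10, 12, and 14 DAS, and 145 to 223, 213 to 315, and 348 to 499 in *spp1*. Among these inflorescence and meristem genes were the homologs of maize *ra2*, *ra3*, and *ba1*. The paper reports these homologs as lower in *spp1*. Lower sums in *spp1* can come from such genes and are not read here as less meristem tissue. The summed FPKM of 3 floral organ genes was 164 to 228 in A10.1 and 112 to 181 in *spp1* at 12 DAS. The sum of 26 photosynthesis genes used as leaf markers was 6941 to 8069, 4056 to 5491, and 2375 to 3055 FPKM in A10.1 at 10, 12, and 14 DAS, and 5208 to 8831, 5082 to 6296, and 2976 to 5132 FPKM in *spp1*. These leaf markers were also drawn from the authors' tables of differential expression between the genotypes. No marker was at 0 in all libraries of a group, and the part of these cell types in the results was not tested.

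**Figure D1:**
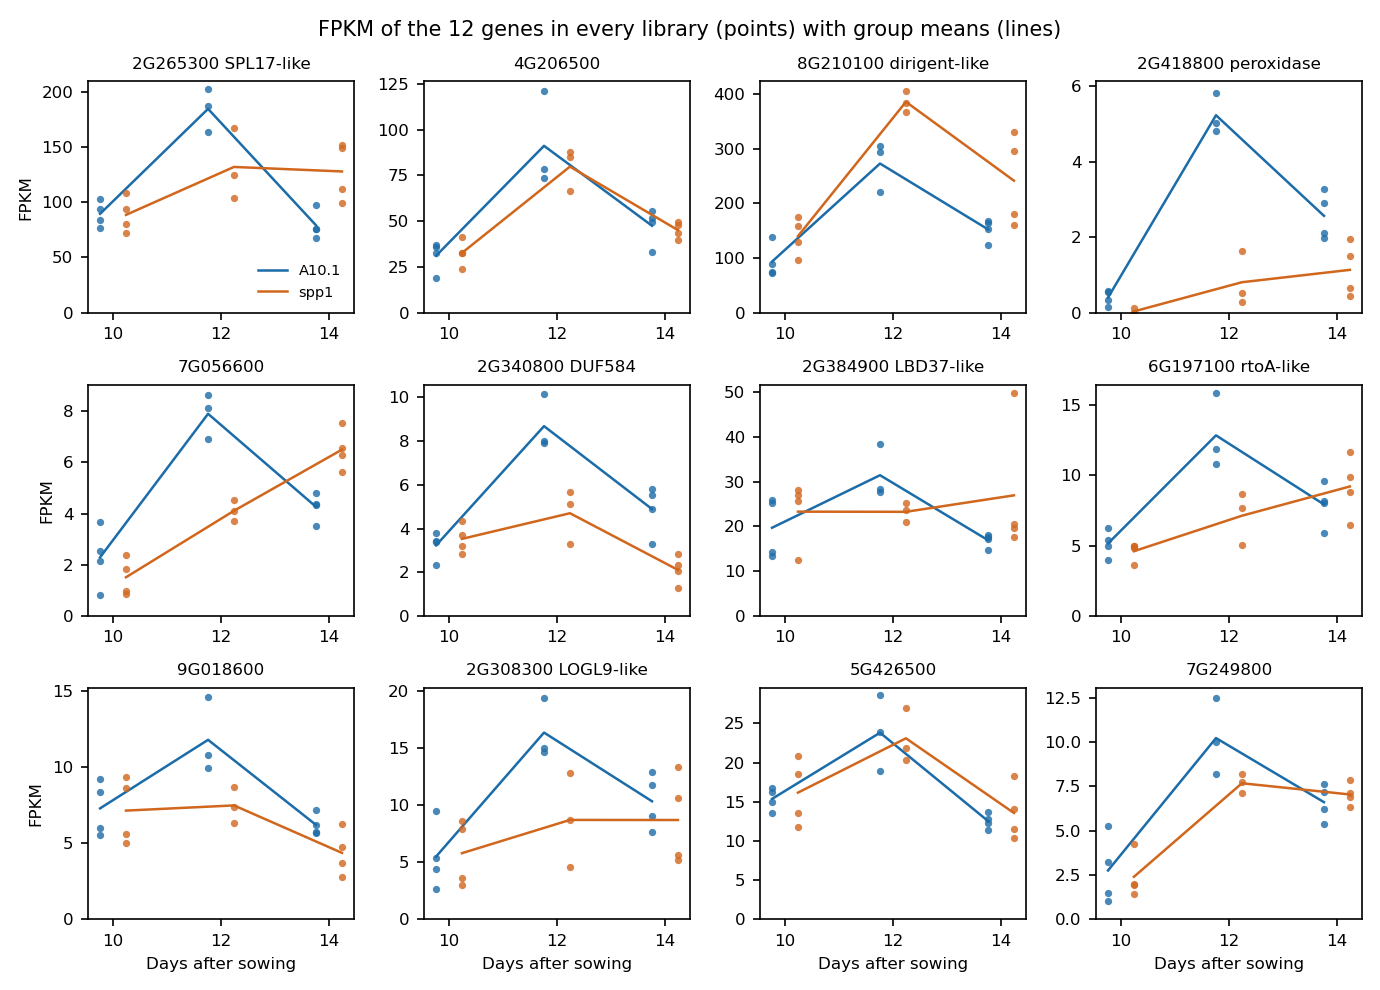
FPKM of the 12 genes (vertical axes, linear and starting at 0) at 10, 12, and 14 DAS (horizontal axes), with 1 point per library and lines through the group means, A10.1 in blue and *spp1* in orange. Every A10.1 line peaks at 12 DAS by the rule, and the *spp1* lines of Sevir.4G206500 and the dirigent-like gene peak there without overlap with the other stages.

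In A10.1 the SPL17-like gene stood at 94.0, 103, 77.1, and 83.9 FPKM at 10 DAS, at 202, 164, and 187 FPKM at 12 DAS, and at 67.2, 76.1, 97.5, and 75.4 FPKM at 14 DAS. Its mean at 12 DAS was 2.06-fold that at 10 DAS and 2.33-fold that at 14 DAS, and its smaller step, 1.04 on the log2 scale, was the largest of the 12. In *spp1* it stood at 79.9, 94.0, 71.7, and 108 FPKM, at 167, 104, and 124 FPKM, and at 112, 99.7, 151, and 149 FPKM. The *spp1* libraries of 12 DAS were not separate from those of either other stage. The change from 10 to 12 DAS in *spp1* was 0.56 (SE 0.20, adjusted p = 0.160 by limma), and that from 12 to 14 DAS was -0.04 (adjusted p = 0.970), or -0.12 without replicate 4 of 14 DAS. At 14 DAS the *spp1* mean of this gene was 0.68 higher on the log2 scale (0.60 without replicate 4), and the libraries did not overlap, although the lowest of *spp1* (99.66 FPKM) was close to the highest of A10.1 (97.45 FPKM).

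The LBD37-like gene stood at 25.9, 25.1, 13.5, and 14.3 FPKM at 10 DAS in A10.1, at 38.5, 28.3, and 27.6 FPKM at 12 DAS, and at 14.7, 17.2, 18.1, and 17.7 FPKM at 14 DAS. The lowest A10.1 library of 12 DAS thus lay only slightly above the highest of 10 DAS. In *spp1* the levels were 25.7, 28.0, 12.4, and 27.1 FPKM at 10 DAS, 23.7, 20.9, and 25.2 FPKM at 12 DAS, and 19.6, 17.7, 20.6, and 49.8 FPKM at 14 DAS. The 3 *spp1* libraries of 12 DAS lay within the range of those of 10 DAS, and the highest value of the gene in all 22 libraries was that of replicate 4 at 14 DAS, the library that stands apart. The change from 12 to 14 DAS was 0.08 (SE 0.34) with this library and -0.25 without it (adjusted p = 0.965 and 0.850 by limma). From 10 to 12 DAS the change was 0.06 (adjusted p = 0.928), and it turned to -0.21 without replicate 3 of *spp1* at 10 DAS.

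Among the enzyme genes, the LOGL9-like gene stood at 5.33, 9.50, 4.38, and 2.66 FPKM at 10 DAS in A10.1, at 14.6, 14.9, and 19.4 FPKM at 12 DAS, and at 7.58, 12.9, 11.8, and 8.99 FPKM at 14 DAS. This was a 2.98-fold rise of the mean, followed by a level 1.58-fold below the peak. In *spp1* its values were 7.90, 2.98, 3.59, and 8.6 FPKM, then 12.8, 4.53, and 8.68 FPKM, and then 5.61, 5.18, 10.6, and 13.3 FPKM. They overlapped between all stages, and the spread within a stage was larger than the differences between them. The change was 0.52 (SE 0.41, adjusted p = 0.451 by limma) from 10 to 12 DAS and 0.00 (adjusted p = 0.999) from 12 to 14 DAS, the latter -0.21 without replicate 4 of 14 DAS.

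The dirigent-like gene had the highest level at 12 DAS of the 12 genes in A10.1. It stood at 73.6, 72.2, 88.7, and 139 FPKM at 10 DAS in A10.1, at 220, 294, and 305 FPKM at 12 DAS, and at 168, 124, 153, and 165 FPKM at 14 DAS. The *spp1* libraries held 95.7, 130, 159, and 176 FPKM at 10 DAS, 407, 367, and 385 FPKM at 12 DAS, and 331, 160, 296, and 180 FPKM at 14 DAS. In *spp1*, too, every library of 12 DAS lay above every library of the other stages. The rise was 1.49 (SE 0.26, adjusted p = 0.0127 by limma), and without replicate 1 of *spp1* at 12 DAS it was 1.45 (adjusted p = 0.0773). The change from 12 to 14 DAS was -0.74 (SE 0.26, adjusted p = 0.240), or -0.62 without replicate 4 of 14 DAS, with a higher and a lower pair among the *spp1* libraries of 14 DAS. It was the only one of the 12 genes with a higher mean in *spp1* than in A10.1 at 12 DAS, by 0.51 on the log2 scale and without overlap. The *spp1* mean was also higher by 0.60 at 10 DAS and by 0.60 at 14 DAS (0.72 without replicate 4 of *spp1*), where the libraries overlapped.

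The peroxidase gene was the least expressed. In A10.1 it stood at 0.34, 0.55, 0.57, and 0.14 FPKM at 10 DAS, at 4.83, 5.84, and 5.04 FPKM at 12 DAS, and at 2.10, 3.29, 2.90, and 1.98 FPKM at 14 DAS. In *spp1* it was listed at 0 in 3 libraries of 10 DAS and at 0.13 FPKM in replicate 2, and it had 1.63, 0.51, and 0.28 FPKM at 12 DAS and 0.44, 0.65, 1.5, and 1.95 FPKM at 14 DAS. At each of the 3 stages all *spp1* libraries lay below all A10.1 libraries. The margin was narrow at 10 DAS (0.13 against 0.14 FPKM) and at 14 DAS (1.95 FPKM, in replicate 4, against 1.98 FPKM). The difference at 12 DAS was -1.86 on the log2 scale, the largest of the 12. With a mean under 1 FPKM in *spp1* the gene was not tested there, and in a fit without this filter its changes were 0.74 (adjusted p = 0.231 by limma) and 0.25 (adjusted p = 0.865).

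The DUF584 gene stood between 2.31 and 3.80 FPKM at 10 DAS in A10.1, between 7.93 and 10.14 FPKM at 12 DAS, and between 3.30 and 5.82 FPKM at 14 DAS. In *spp1* it had 2.84, 4.36, 3.68, and 3.22 FPKM at 10 DAS, 5.69, 5.11, and 3.30 FPKM at 12 DAS, and 2.31, 2.04, 2.81, and 1.26 FPKM at 14 DAS. All *spp1* libraries of 12 DAS were above those of 14 DAS but not above those of 10 DAS. Its change from 12 to 14 DAS in *spp1* was -0.88 (SE 0.20, adjusted p = 0.0588 by limma). With all libraries, this was the only gene of the 12 whose change was larger in size there than in A10.1 (-0.73). Without replicate 4 of 14 DAS it was -0.73 (adjusted p = 0.0900 by limma), level with A10.1. In that fit the change of Sevir.9G018600 was -0.86, against -0.82 in A10.1. The rtoA-like gene went from 3.99 to 6.24 FPKM at 10 DAS to 10.8 to 15.8 FPKM at 12 DAS and 5.93 to 9.62 FPKM at 14 DAS in A10.1. In *spp1* it had 3.62 to 5, 5.02 to 8.68, and 6.47 to 11.6 FPKM, so that the highest mean was at 14 DAS. Its changes in *spp1* were 0.52 (SE 0.20, adjusted p = 0.190) and 0.33 (SE 0.20, adjusted p = 0.621), the latter 0.29 without replicate 4 of 14 DAS.

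Of the 5 genes without a description, Sevir.4G206500 was the one with a peak past the threshold on both sides in *spp1*. It stood at 35.6, 32.6, 19.1, and 37.1 FPKM at 10 DAS in A10.1, at 121, 78.4, and 73.8 FPKM at 12 DAS, and at 51.6, 49.7, 55.3, and 33.2 FPKM at 14 DAS. In *spp1* it had 32.5, 32.7, 23.9, and 41.5 FPKM, then 84.8, 87.9, and 66.6 FPKM, and then 39.8, 49.6, 43.3, and 47.7 FPKM. The genotypes had nearly the same course, and the *spp1* libraries of 12 DAS did not overlap with those of the other stages. The rise in *spp1* was 1.28 (SE 0.16, adjusted p = 0.00332 by limma), and it passed the threshold in each of the 11 fits that left out 1 library. The fall was -0.80 (SE 0.16, adjusted p = 0.0370), but it passed in only 2 of the 11 fits that left out a library, those without replicate 3 or replicate 4 of *spp1* at 10 DAS. In the other 9 its size was -0.93 to -0.73, and over the 11 the adjusted p was 0.0149 to 0.173, with a change of -0.83 and an adjusted p of 0.0540 without replicate 4 of 14 DAS.

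Sevir.7G249800 stood at 1.47, 3.24, 1.03, and 5.25 FPKM at 10 DAS in A10.1, at 8.22, 9.98, and 12.5 FPKM at 12 DAS, and at 7.19, 7.65, 6.24, and 5.35 FPKM at 14 DAS. In *spp1* it had 1.95, 1.40, 1.98, and 4.23 FPKM, then 8.20, 7.10, and 7.73 FPKM, and then 7.10, 6.31, 7.85, and 6.91 FPKM. It therefore rose in *spp1*, by 1.42 (SE 0.21, adjusted p = 0.00621 by limma), with a change of -0.11 afterwards (SE 0.21, adjusted p = 0.912), or -0.10 without replicate 4 of 14 DAS. Sevir.7G056600 had 0.83, 3.67, 2.14, and 2.52 FPKM at 10 DAS in A10.1, 8.65, 8.15, and 6.91 FPKM at 12 DAS, and 4.37, 4.34, 4.82, and 3.52 FPKM at 14 DAS. Its *spp1* values were 2.38, 0.97, 1.82, and 0.87 FPKM, then 4.53, 3.70, and 4.10 FPKM, and then 7.53, 6.56, 5.62, and 6.30 FPKM. The order of the later stages was thus opposite in the genotypes, with every *spp1* library of 14 DAS above every one of 12 DAS. The rise from 10 to 12 DAS in *spp1* was 1.07 (SE 0.19, adjusted p = 0.0166 by limma). It missed the threshold without replicate 2 of 10 DAS (adjusted p = 0.0503), replicate 1 of 12 DAS (0.102), or replicate 4 of 12 DAS (0.0529). The change from 12 to 14 DAS was 0.55 (SE 0.19, adjusted p = 0.249), or 0.56 without replicate 4 of 14 DAS.

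The last pair had small rises in A10.1, of 0.63 and 0.60 on the log2 scale. Sevir.9G018600 had 5.55 to 9.22, 9.97 to 14.6, and 5.65 to 7.17 FPKM in A10.1 and 5 to 9.35, 6.32 to 8.71, and 2.75 to 6.24 FPKM in *spp1*. Sevir.5G426500 had 13.6 to 16.7, 19.0 to 28.6, and 11.4 to 13.7 FPKM in A10.1 and 11.8 to 20.8, 20.4 to 27.0, and 10.4 to 18.3 FPKM in *spp1*. For both, every *spp1* library of 12 DAS lay above every one of 14 DAS, while those of 10 and 12 DAS overlapped. The changes from 12 to 14 DAS were -0.70 (SE 0.24, adjusted p = 0.239 by limma) and -0.75 (SE 0.21, adjusted p = 0.129), respectively, and -0.86 and -0.77 without replicate 4 of 14 DAS.

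**Figure D2:**
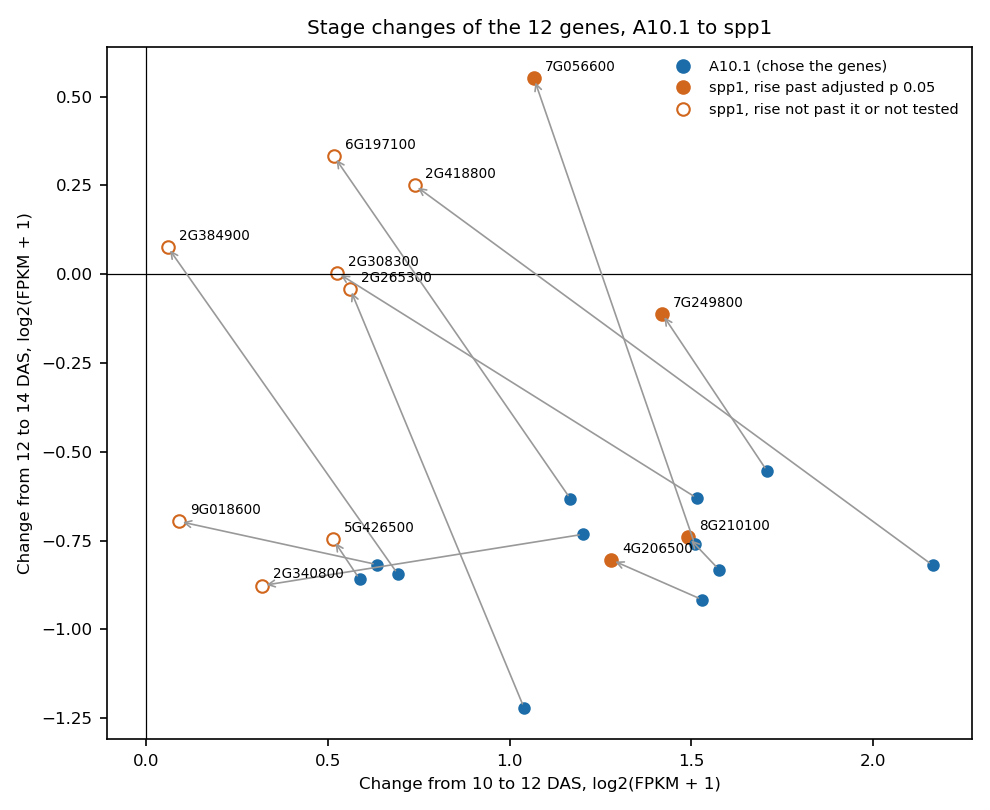
Change from 10 to 12 DAS (horizontal) against change from 12 to 14 DAS (vertical) of the mean log2(FPKM + 1) of the 12 genes, with an arrow from the A10.1 value (blue) to the *spp1* value (orange, filled where the rise passed an adjusted p of 0.05). All *spp1* points lie to the right of 0 and to the left of their A10.1 point, and 5 of them lie above 0 on the vertical axis.

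Over all 12 genes, the question was whether the A10.1 peak was also found in *spp1*. Of the 11 genes tested in *spp1*, 4 were higher at 12 than at 10 DAS, namely Sevir.4G206500, the dirigent-like gene, Sevir.7G056600, and Sevir.7G249800, where 1.12% of the 17902 genes tested were called in this direction. Without replicate 1 of *spp1* at 12 DAS the number was 2. From 12 to 14 DAS 1 gene, Sevir.4G206500, was lower, against 0.877% of all genes, and without replicate 4 of 14 DAS it was 0. Both calls were made for 2 of all genes, or 0.0112%, of which Sevir.4G206500 is 1 and the other is among those left out by the rule. No gene of the 12 was called in the opposite direction. At an unadjusted p under 0.05 (limma), 7 were higher at 12 than at 10 DAS, 5 were lower at 14 than at 12 DAS, and 1 was higher at 14 DAS, beside 12.5%, 7.83%, and 3.62% of all genes tested.

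By count, the rise was found in more of the 12 genes than the fall. Over all genes, too, *spp1* libraries of 12 DAS lay wholly above those of 10 DAS more often than above those of 14 DAS. The counts alone therefore do not rank the steps. The change from 10 to 12 DAS in *spp1* was above 0 in all 12, although those of Sevir.9G018600 and the LBD37-like gene turned to -0.00026 and -0.04 when libraries were scaled by their median ratio. The change from 12 to 14 DAS was below 0 in 7 and above 0 in 5. The medians over the 12 were 0.54 and -0.08 in *spp1*, beside 0.09 and -0.05 for all genes tested, and 1.36 and -0.82 in A10.1, where the rule fixed them. Without replicate 4 of *spp1* at 14 DAS, the second median was -0.23, and it turned to 0.01 without replicate 1 of 12 DAS and to 0.0022 without replicate 2 of 14 DAS. Every *spp1* library of 12 DAS lay above every one of 10 DAS for 6 of the 12 genes (19.6% of all genes did so) and above every one of 14 DAS for 5 (7.03%). Every library of 12 DAS lay below every one of 14 DAS for 1, Sevir.7G056600 (3.59%). With all libraries, the rise was smaller in *spp1* than in A10.1 for 12 of 12 genes and the fall for 11 of 12. However, the choice of genes on A10.1 values favours this direction, and the difference between the genotypes was not tested.

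When the same rule was applied to the *spp1* values, 5 genes remained after those left out. Sevir.4G206500 and the dirigent-like gene were in both lists, which is 16.7% of the A10.1 list and 40% of the *spp1* list. The other 3 in *spp1*, Sevir.7G035000, Sevir.5G118900, and Sevir.4G119200, had means of 5.78, 5.397, and 5.51 FPKM at 12 DAS, just above the minimum of the rule.

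**Figure D3:**
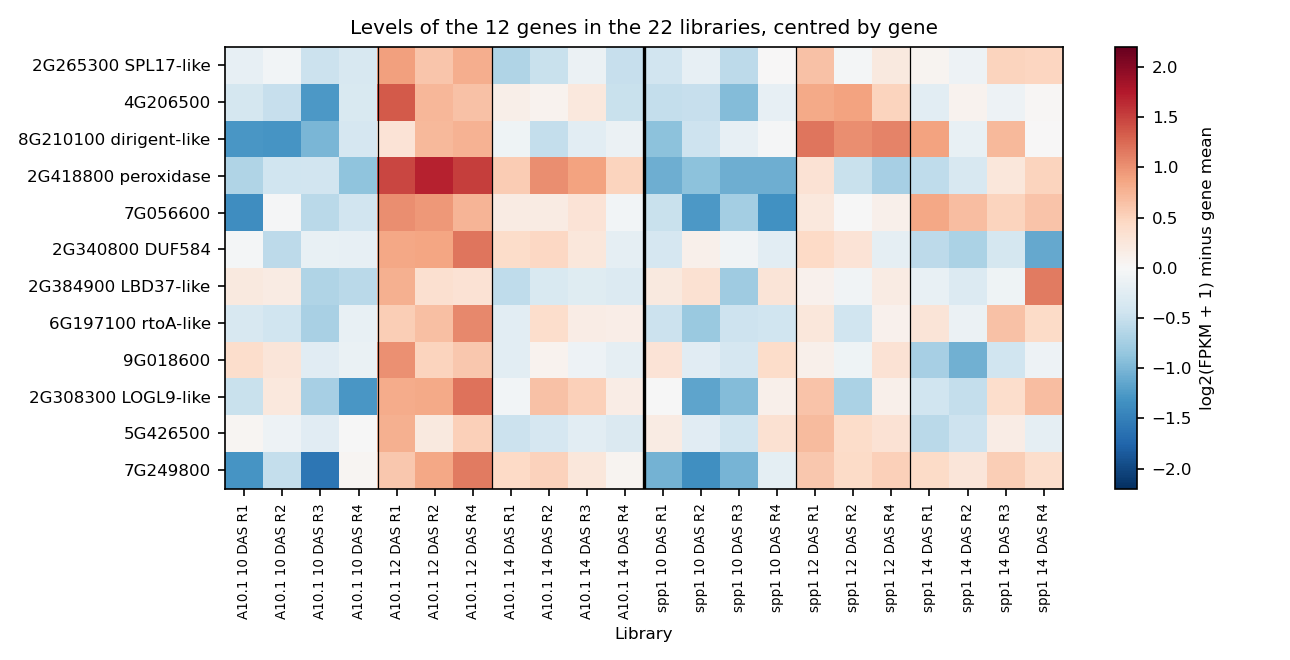
Level of each of the 12 genes (rows) in the 22 libraries (columns, A10.1 to the left of the thick line and *spp1* to the right), as log2(FPKM + 1) minus the mean of the gene over all libraries. The 3 A10.1 columns of 12 DAS are red in all rows by the rule, whereas those of *spp1* at 12 DAS are mixed, and replicate 2 is the palest of them.

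The 12 genes did not move as a block among the *spp1* libraries. Over the 66 pairs of genes, Pearson's r over the 11 *spp1* libraries ran from -0.51 to 0.86 with a median of 0.41, with 27 pairs above 0.5 and 13 below 0. These libraries cover the 3 stages, so that the values also hold shared change with stage. The median level of the 12 genes, after centring each gene on its mean over all libraries, was 0.72 to 0.83 in the A10.1 libraries of 12 DAS. In the *spp1* libraries of 12 DAS it was 0.52 in replicate 1, -0.03 in replicate 2, and 0.20 in replicate 4, and at 14 DAS it was -0.20, -0.23, 0.31, and 0.40. Replicates 3 and 4 of *spp1* at 14 DAS thus lay above replicates 2 and 4 of 12 DAS in this median.

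**Figure D4:**
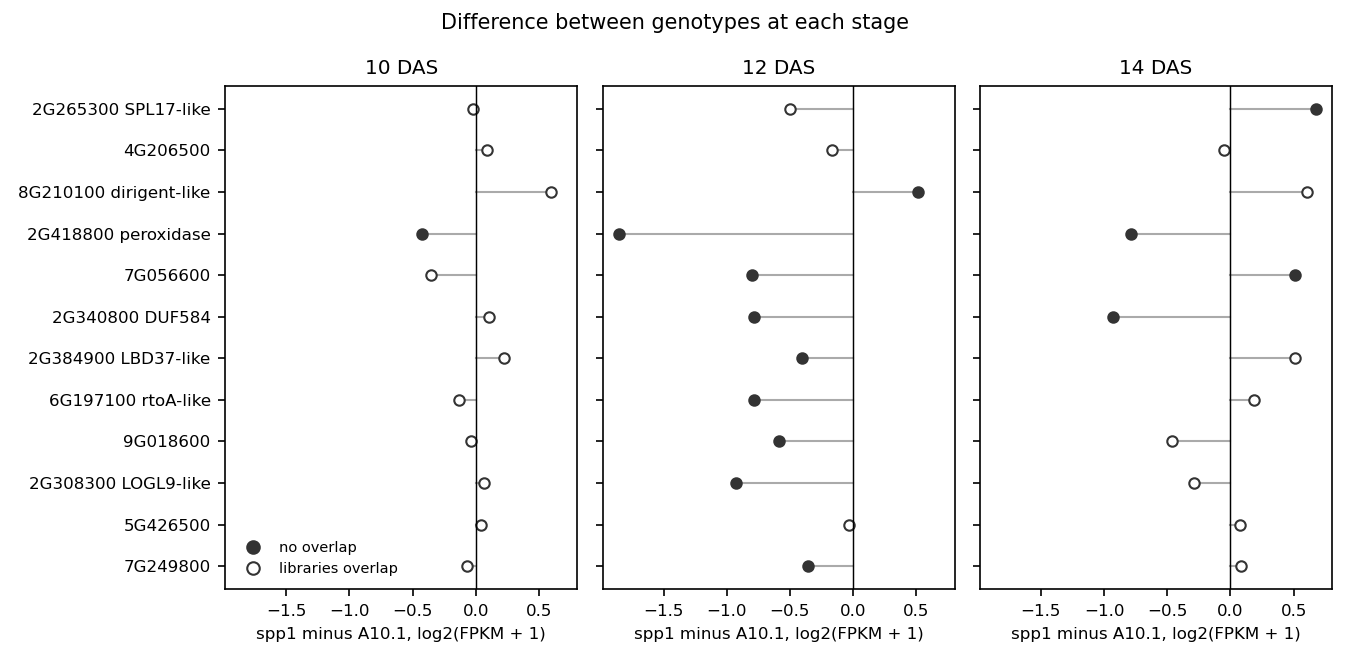
Difference between the genotypes (*spp1* minus A10.1, in log2(FPKM + 1)) for each of the 12 genes at 10, 12, and 14 DAS, filled where no library of one genotype overlaps with the other. At 12 DAS 11 of the 12 points lie below 0, whereas at 10 and 14 DAS they lie on both sides of it.

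The genotypes were next set side by side at each stage, as a description. The rule acted on the A10.1 side at all 3 stages, high at 12 DAS and lower at 10 and 14 DAS. The shares of all genes, which were not so chosen, are therefore not a like-for-like background at any stage. At 12 DAS, the stage that the rule made high in A10.1, 11 of the 12 genes had a lower mean in *spp1*. All *spp1* libraries lay below all A10.1 libraries for 8 genes, beside 5.42% of all genes with at least 1 FPKM, and above them for 1, the dirigent-like gene, beside 7.37%. The median difference was -0.54. Next to the peroxidase (-1.86), the LOGL9-like gene (-0.93), Sevir.7G056600 (-0.80), the DUF584 gene (-0.78), and the rtoA-like gene (-0.78) had the lowest values. At 10 DAS the median difference was 0.01, with 6 genes lower and 6 higher, and the peroxidase was the 1 gene below without overlap, with 0 above. Of all genes with at least 1 FPKM at 10 DAS, 1.27% were below and 1.32% above, and the peroxidase is not among these, since its mean at this stage was under 1 FPKM. This median was -0.11 without replicate 3 of A10.1, -0.03 without replicate 1 of *spp1*, and -0.13 without replicate 4 of *spp1*. At 14 DAS the median was 0.08, with 5 lower and 7 higher. It was 0.0025 without replicate 3 of *spp1*, 0.045 and 0.052 without replicates 4 and 1 of A10.1, 0.13 and 0.14 without replicates 1 and 2 of *spp1*, and 0.18 with median ratio scaling. Below without overlap were the peroxidase (-0.79) and the DUF584 gene (-0.93), beside 10.2% of all genes, and above were the SPL17-like gene (0.68) and Sevir.7G056600 (0.51), beside 4.09%. Without replicate 4 of *spp1* these differences were -0.96, -0.78, 0.60, and 0.52, the median was 0.07, and Sevir.9G018600 (-0.62) was also below without overlap. Medians over all genes were -0.02, -0.00, and -0.10 at the 3 stages.

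The positions of the 12 genes are given without the matching shares of all genes, so these counts are description only. By their identifiers, 5 were on chromosome 2, 2 on chromosome 7, and 1 each on chromosomes 4, 5, 6, 8, and 9, and none was within 2 places of another in the order of identifiers. Of 48 neighbours within 2 places, 24 had at least 1 FPKM at 12 DAS, and 1 of these made both steps in A10.1. This was Sevir.2G418700, beside the peroxidase, with means of 0.48, 1.33, and 0.645 FPKM. The levels of the 12 genes at 12 DAS in A10.1 spanned the range of expressed genes from the 49.3 percentile (peroxidase) to the 98.2 percentile (dirigent-like). Beside the 12, the auxin genes and the same 9 branching genes were counted in *spp1*. The 9 are homologs of maize *ra2*, *ra3*, *lg1*, *tsh1*, *ba1*, *bd1*, *abph1*, *bm1*, and *bm3*, the last pair being lignin synthesis genes. Most of them are named in the paper as different between the genotypes in these same libraries. Their counts are thus description, and the shares of all genes are not a like background for them. From 10 to 12 DAS, 5 of 9 branching genes and 5 of 66 tested auxin genes were higher and 0 and 1 were lower, and from 12 to 14 DAS, 0 of either list were lower and 2 and 3 were higher (limma, adjusted over all genes). Over all genes tested, 1.12% were higher and 1.42% lower at 12 than at 10 DAS, and 0.877% were lower and 0.676% higher at 14 than at 12 DAS. Of 316 tested genes described as transcription factors, the SPL17-like and LBD37-like genes included, 31 were higher and 11 lower at 12 than at 10 DAS, and 11 were lower and 22 higher at 14 than at 12 DAS.

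The limits of the rule were close for some genes. The 3 genes just inside had smaller steps of 0.62 (LOGL9-like), 0.60 (Sevir.5G426500), and 0.56 (Sevir.7G249800). Just outside, without overlap of libraries, were Sevir.2G261400 at 0.44, with means of 697, 1253, and 924 FPKM, the histone H3.3-like gene Sevir.1G207500 at 0.37, and Sevir.8G224500 at 0.34. A further 14 genes made both steps but had overlapping libraries. Among them were Sevir.6G252200, a C2H2 zinc finger gene paired with Arabidopsis *ZFP2*, with 4.27, 29.0, and 13.6 FPKM, and Sevir.1G308700, an NF-Y subunit B gene of the *LEC1* kind, a class known from Arabidopsis seed development, with 1.80, 21.8, and 11.5 FPKM. These last were named after their values were seen.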

How the data were processed

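RNA-seq of 22 libraries was analysed from the authors' table of FPKM values, made by them after trimming with Trimmomatic and mapping with TopHat2, with Cuffdiff used for their comparisons. The reference was the version 1 assembly for S. viridis, and tool versions are not given in the sources used here. The authors deposited the percent of mapped reads, which lay between 86.69% and 93.22%. FPKM values carry no counts, so precision came from the spread between replicates, and no interval was computed from depth. The authors' tables of differential expression between genotypes hold group means, fold changes, and q-values, none of which was used. Only their descriptions were used, and these cover 2952 genes.

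Stages were compared within *spp1* on log2(FPKM + 1) in R 4.3.3 with limma 3.58.1 (empirical Bayes with trend), without further scaling, for the 17902 genes that averaged 1 FPKM or more over the 11 *spp1* libraries. Benjamini-Hochberg adjustment was over all of these, with a threshold of 0.05. The test was checked on simulated data with independent noise, in which 200 of 17740 genes were changed by 1.5 on the log2 scale. For the earlier and the later change, 97% and 96% of these were called, with 15 and 13 unchanged genes. No library that stands apart was simulated. Python 3.11.15 with matplotlib 3.10.9 made the figures. All 12 genes that met the selection rule were named, with the 3 nearest on each side of its limit. The genes, lists, and tests were chosen with earlier results of these data known. Alternatives were a pseudocount of 0.1, other filters, median ratio scaling, 1 fit of all 22 libraries, only the stages compared, a replicate block, and omission of each library in turn. Alternatives for the differences between genotypes were added after seeing the data. Promoter and protein sequences and gene coordinates were not analysed here.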

Additional observations from a re-analysis of the deposited data

Results flagged for a closer look

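In 52 groups of 4 libraries, 4 had a library far from the other 3 by Dixon's test, which chance does in about 1 of 20 groups. For the peroxidase this was replicate 2 of *spp1* at 10 DAS, at 0.13 FPKM where the other 3 were listed at 0. The LBD37-like gene had it at 10 DAS, with 12.41 FPKM in replicate 3 of *spp1*, and at 14 DAS, with 49.79 FPKM in replicate 4 of *spp1*, the library with the fewest mapped reads. The rtoA-like gene had 3.62 FPKM in replicate 2 of *spp1* at 10 DAS. Sevir.7G056600 moved in opposite directions in the genotypes from 12 to 14 DAS, by 0.55 in *spp1* and -0.76 in A10.1, with no overlap between the stages in either genotype, and the difference was not tested.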

How the results depend on the processing

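The 4 genes higher at 12 than at 10 DAS in *spp1* numbered 2 to 4 when single libraries were left out. The single gene lower at 14 DAS numbered 0 without a filter or with median ratio scaling, 2 in the fit of all 22 libraries (whose spread includes the A10.1 libraries that chose the genes), and 0 to 1 with a library left out. The single gene with both calls numbered 0 without a filter, with scaling, and in the fit of all libraries, and 0 to 1 with a library left out. Scaling moved the median of all genes from 0.09 to -0.0001 for the first change. With a library left out, the median change of the 12 was 0.39 to 0.77 from 10 to 12 DAS and -0.27 to 0.0115 from 12 to 14 DAS, and the median genotype difference at 10 DAS was -0.13 to 0.087. The rule was met by 22 genes with a minimum of 1 FPKM, in place of 14, and by 14 to 25 with an A10.1 library left out (25 without replicate 2 of 12 DAS), when 9 to 12 of the genes were kept.

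Changes of single genes turned sign, all of them with no call. From 10 to 12 DAS that of the LBD37-like gene was -0.0403 with scaling and -0.21 to 0.17 with a library left out, and that of Sevir.9G018600 was -0.00026 with scaling and -0.0442 to 0.22. From 12 to 14 DAS that of the SPL17-like gene was 0.0269 with scaling and -0.20 to 0.14 with a library left out, that of the LBD37-like gene -0.25 to 0.23, and that of the LOGL9-like gene -0.35 to 0.31. The causes were not tested.

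Whether replicate numbers pair the *spp1* libraries was not settled. Of 10 same-numbered pairs, 3 had correlations over 0.1 (-0.17 to 0.51), beside -0.47 to 0.40 for the other pairs. Of 11 libraries, 5 were closest to one of their own number. With the number as a replicate block, 5 genes were higher at 12 DAS, 1 (DUF584) was lower at 14 DAS, and 0 had both calls. The change of the LBD37-like gene from 10 to 12 DAS was -0.11 in that fit.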
